A study of Mus musculus with 32 samples.

Results

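Tuft cells were followed through 8 of their genes in the colon and colon tumors of WT and *Dnase1l3*-KO mice. The genes are *Dclk1*, *Trpm5*, *Pou2f3*, *Il25*, *Gnat3*, *Avil*, *Sh2d6* and *Alox5*, chosen by symbol, and all 8 were found among the 55291 symbols of the count table in each of the 32 libraries. Whole colon RNA came from mice on a C57BL/6 background, either WT or carrying a constitutive deletion of *Dnase1l3*, a secreted DNase, in the whole body. Untreated mice (D0) were compared with mice given AOM (azoxymethane, a carcinogen, 8 mg/kg) and DSS (dextran sulfate sodium, which injures the epithelium, 2.5% in drinking water). Treated mice were 3 months old at the AOM injection, whereas no age of the D0 mice is given in the sources used here. Colon was taken after 1 AOM/DSS cycle and 5 days of recovery (D19) or after 3 cycles (D80), and tumors were taken after 3 cycles. Each colon group held 4 mice per genotype, and tumors came from 5 WT and 3 KO mice. In total 26 mice were sampled, and 3 mice of each genotype gave both D80 colon and tumor.

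Tuft cells are rare chemosensory cells of the intestinal epithelium. They sense luminal metabolites through a taste-like pathway, in which G protein subunits such as gustducin act through phospholipase C and calcium to open the cation channel TRPM5. The transcription factor POU2F3 is required for their formation. In the small intestine they release IL-25, which drives type 2 lymphocytes to make IL-13, and they also make leukotrienes and prostaglandins.

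Levels are given as CPM, a count as a share of its library's total scaled by TMM factors, and the total counts per library ranged from 18951121 to 47623288. Bulk RNA cannot tell fewer tuft cells from less RNA per cell. The 12 epithelial genes, *Epcam* among them, were present in every library, and *Epcam* had a group mean between 1186 and 1529 CPM. KO D19 mouse 811, WT D80 mouse 581 and KO tumor mouse 544 differed from the other libraries of their groups by the share of mitochondrial counts, at 10.6%, 15.1% and 8.02%, the highest of each group. *Hoxb13*, a marker of the distal colon, also differed: it was at 24.6 ± 21.3 CPM in WT D0 (SD, n = 4) and at 121 ± 20.3 CPM in WT D19 (SD, n = 4). KO mouse 872 had 4.0 CPM of *Hoxb13*, against 127 to 154 CPM in the other 3 KO D0 mice. Of the other posterior Hox genes tested at D0, *Hoxd13* was at 3.34 CPM in KO and 0.325 CPM in WT, and *Hoxa13* at 40.3 and 41.0 CPM. Whether the sampled region differed was not tested. The sources used here do not name the deleted part of *Dnase1l3*, and its level (1.79 to 10.4 CPM in WT libraries, 0.675 to 11.8 CPM in KO libraries) is no check of the genotype.

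The genes are spread over 7 chromosomes of GRCm38, and their positions are those of GENCODE release M21. *Dclk1*, a kinase used as a tuft marker, lies at chr3:55242364-55539068 on the plus strand and overlaps 6 predicted genes. *Trpm5* lies at chr7:143069153-143094642 on the minus strand, where 220 of its 6398 exonic bases are shared with *Tssc4* on the plus strand. *Avil*, which encodes the actin-binding protein advillin, lies at chr10:127000709-127020994 on the plus strand, with 165 of 3398 exonic bases shared with *Tsfm* on the minus strand. No strand setting is stated for the counting, so reads in the shared bases cannot be assigned. *Gnat3* (α-gustducin, chr5:17962549-18019834, plus), *Pou2f3* (chr9:43123939-43210369, minus), *Il25* (chr14:54932695-54935837, plus), *Sh2d6* (an SH2 domain adaptor, chr6:72513641-72521707, minus) and *Alox5* (5-lipoxygenase, chr6:116410077-116461178, minus) overlap no other annotated gene.

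Of the 8 genes, 6 had a promoter in the RefSeq table of GRCm38.p6, and *Pou2f3* and *Il25* had none there. Promoters are 250 bases before and 50 bases after a start site. Those of *Avil*, *Trpm5* and *Gnat3* are shown because *Avil* rose in tumors where *Trpm5* and *Gnat3* fell. Capitals mark matches to ATGCAAA, the core of the octamer that POU factors bind, or to CTTTGA, the core of TCF/LEF sites, on either strand.
*Avil* promoter, chr10:127000459-127000758, plus strand: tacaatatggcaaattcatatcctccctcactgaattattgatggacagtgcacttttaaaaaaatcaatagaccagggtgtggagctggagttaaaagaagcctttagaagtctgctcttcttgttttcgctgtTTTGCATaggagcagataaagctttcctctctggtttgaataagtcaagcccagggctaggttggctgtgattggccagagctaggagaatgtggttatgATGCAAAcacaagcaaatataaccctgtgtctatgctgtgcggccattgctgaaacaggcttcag
*Trpm5* promoter, chr7:143094593-143094892, minus strand: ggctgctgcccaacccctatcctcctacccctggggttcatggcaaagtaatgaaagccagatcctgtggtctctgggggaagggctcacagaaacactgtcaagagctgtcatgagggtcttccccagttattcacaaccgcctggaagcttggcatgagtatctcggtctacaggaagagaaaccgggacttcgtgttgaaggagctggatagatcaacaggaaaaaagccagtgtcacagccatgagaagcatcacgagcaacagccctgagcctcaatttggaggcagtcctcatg
*Gnat3* promoter, chr5:17962320-17962619, plus strand: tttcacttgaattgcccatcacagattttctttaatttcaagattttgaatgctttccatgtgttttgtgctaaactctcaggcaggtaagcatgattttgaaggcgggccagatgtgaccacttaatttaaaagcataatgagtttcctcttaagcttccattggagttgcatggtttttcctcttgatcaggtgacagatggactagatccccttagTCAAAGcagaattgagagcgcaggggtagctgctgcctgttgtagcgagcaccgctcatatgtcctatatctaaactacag
The *Avil* window held 2 matches to the octamer core, 1 on each strand, and the other 6 windows of these genes held none. Among all 32851 promoters of this length, 4.63% held the octamer core and 16% the TCF/LEF core. *Gnat3* had 1 TCF/LEF match, *Dclk1* had 1 in the first of its 2 promoters, and *Trpm5* had no match to either.

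In untreated colon all 8 genes were detected in all 8 mice. Per kilobase of exon, *Sh2d6* stood highest in WT D0 at 3.38 ± 0.964 CPM/kb (SD, n = 4), followed by *Gnat3* at 2.65 ± 0.666, *Trpm5* at 2.45 ± 0.508 and *Avil* at 2.00 ± 0.425. *Alox5* (1.84 ± 0.608), *Dclk1* (1.32 ± 0.279), *Pou2f3* (0.718 ± 0.148) and *Il25* (0.288 ± 0.133) followed. Neighbors among the first 6 of this order differed by less than the larger SD of each pair. *Il25*, the cytokine, rested on 3 to 14 counts per WT library.

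**Figure D1:**
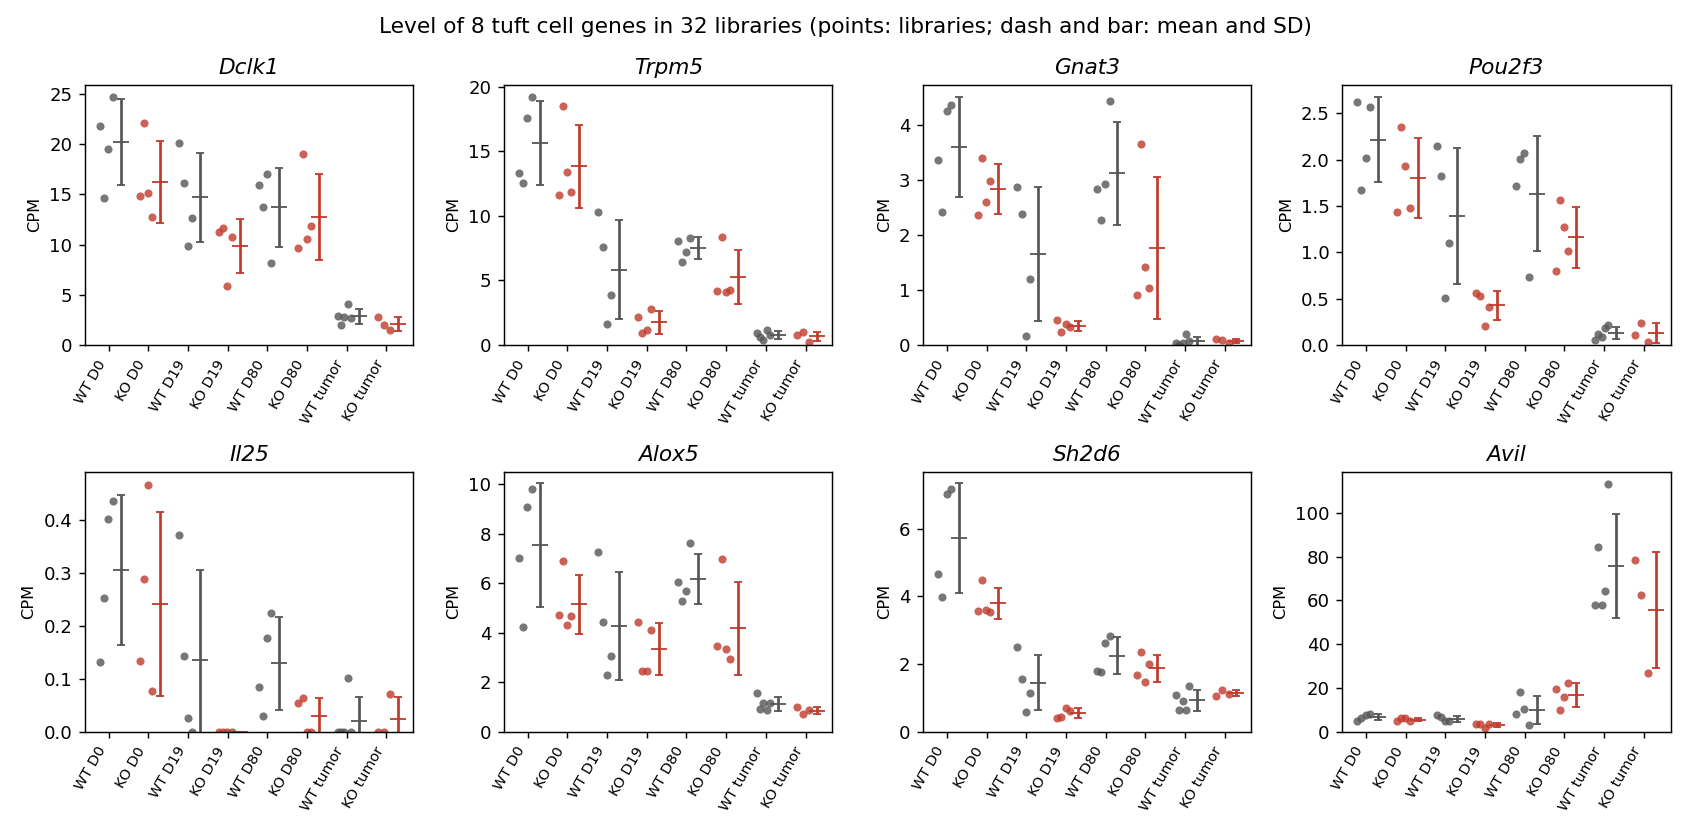
Level of each gene (CPM, vertical axis, from 0) in each library by group (horizontal axis). Points are libraries, gray for WT and red for KO, and the dash and bar are the mean and SD. The tumor libraries are all below the D80 colon libraries for *Dclk1*, *Trpm5*, *Gnat3*, *Pou2f3*, *Alox5* and *Sh2d6*. *Il25* is near 0 in most tumors and *Avil* is highest in tumors.

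KO and WT colon were compared at D0, before any treatment. Of the 7 members tested, 0 were called (adjusted p under 0.05 and fold over 2), as were 0% of all 18175 genes, while 9.63% of all genes had an unadjusted p under 0.05. All 7 were lower in KO, with a median log2 fold change of -0.31 against 0.01 over all genes. *Sh2d6* was at 4.67, 3.99, 7.03 and 7.19 CPM in WT mice and at 3.56, 4.48, 3.59 and 3.55 CPM in KO mice. The groups overlap, and its log2 fold change of -0.58 (SE 0.21) had an adjusted p of 0.469 in edgeR's quasi-likelihood test with Benjamini-Hochberg adjustment, which was used throughout. It was the 1 member with an unadjusted p under 0.05 (0.0194). DESeq2 called 0 of these genes as well.

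After 1 AOM/DSS cycle the channel and the adaptor of tuft cells fell in both genotypes. In WT colon, *Trpm5* went from 13.3, 12.5, 17.6 and 19.2 CPM at D0 to 10.3, 7.58, 1.65 and 3.83 CPM at D19. Each D19 mouse was below each D0 mouse, and the log2 fold change was -1.48 (SE 0.45, adjusted p = 0.0223). *Sh2d6* had 2.51, 1.55, 0.582 and 1.15 CPM in the WT D19 mice, again with no overlap with D0 and a log2 fold change at -2.06 (SE 0.39, adjusted p = 0.00225). These were the 2 members called lower of 7 tested in WT, where 4.04% of all genes were called lower. The other 5 had log2 fold changes from -0.24 (*Avil*, adjusted p = 0.374) to -1.19 (*Gnat3*, adjusted p = 0.128), and their groups overlapped. The *Trpm5* call was lost without WT D0 mouse 920 or 927 or WT D19 mouse 812 (adjusted p from 0.0559 to 0.0589), and with *Hoxb13* (adjusted p = 0.0987) or the epithelial score (0.160) as a covariate, which left *Sh2d6* as the 1 call. *Alox5* was called lower without WT D0 mouse 918 (adjusted p = 0.0385) or WT D19 mouse 685 (0.0117).

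In KO colon 4 of 7 members were called lower at D19 than at D0, where 2.52% of all genes were. *Trpm5* went from 11.6, 18.5, 13.4 and 11.9 CPM at D0 to 2.19, 0.922, 1.11 and 2.78 CPM at D19. The highest KO D19 mouse was far below the lowest D0 mouse, and the log2 fold change was -2.99 (SE 0.38, adjusted p = 0.000655). *Gnat3* went from 2.37, 3.40, 2.60 and 2.98 CPM to 0.450, 0.242, 0.371 and 0.329 CPM, and its log2 fold change was -3.04 (SE 0.29, adjusted p = 0.000137). *Pou2f3*, the factor on which tuft cells depend, went from 1.44, 2.35, 1.93 and 1.48 CPM to 0.558, 0.527, 0.203 and 0.412 CPM. The D0 and D19 values of both genes were far apart, and the log2 fold change of *Pou2f3* was -2.07 (SE 0.35, adjusted p = 0.00324). *Sh2d6* fell by 2.82 on the log2 scale (SE 0.28, adjusted p = 0.000159), to between 0.408 and 0.709 CPM. *Dclk1* and *Avil* were also lower in each KO D19 mouse than in each D0 mouse, but at log2 fold changes of -0.73 (adjusted p = 0.114) and -0.86 (adjusted p = 0.0859) they were not called. Genes of other cell types moved in the same comparison: 6 of 6 fibroblast genes and 8 of 8 macrophage genes were called higher, where 8.95% of all genes were, and 2 of 8 smooth muscle genes were called lower. The summed level was 315 to 438 CPM at D0 and 1507 to 5738 CPM at D19 for fibroblast genes, and 30.9 to 55.9 and 409 to 637 CPM for macrophage genes. That of smooth muscle genes was 4521 to 8675 CPM at D0 and 2732 to 5244 CPM at D19. Their part in the tuft gene values was not tested.

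*Il25* was too low for the fit in each genotype alone. It had 5, 8, 16 and 3 counts in KO D0 mice and 0 counts in all 4 KO D19 mice, whose summed depth allows up to 0.0178 CPM (3 counts). The exact two-sided permutation test gave p = 0.0286, the smallest that 4 against 4 mice allow, and 0.171 after adjustment over 12 comparisons of *Il25*. In WT D19 mice it had 8, 6, 1 and 0 counts (exact p = 0.171 against D0).

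**Figure D2:**
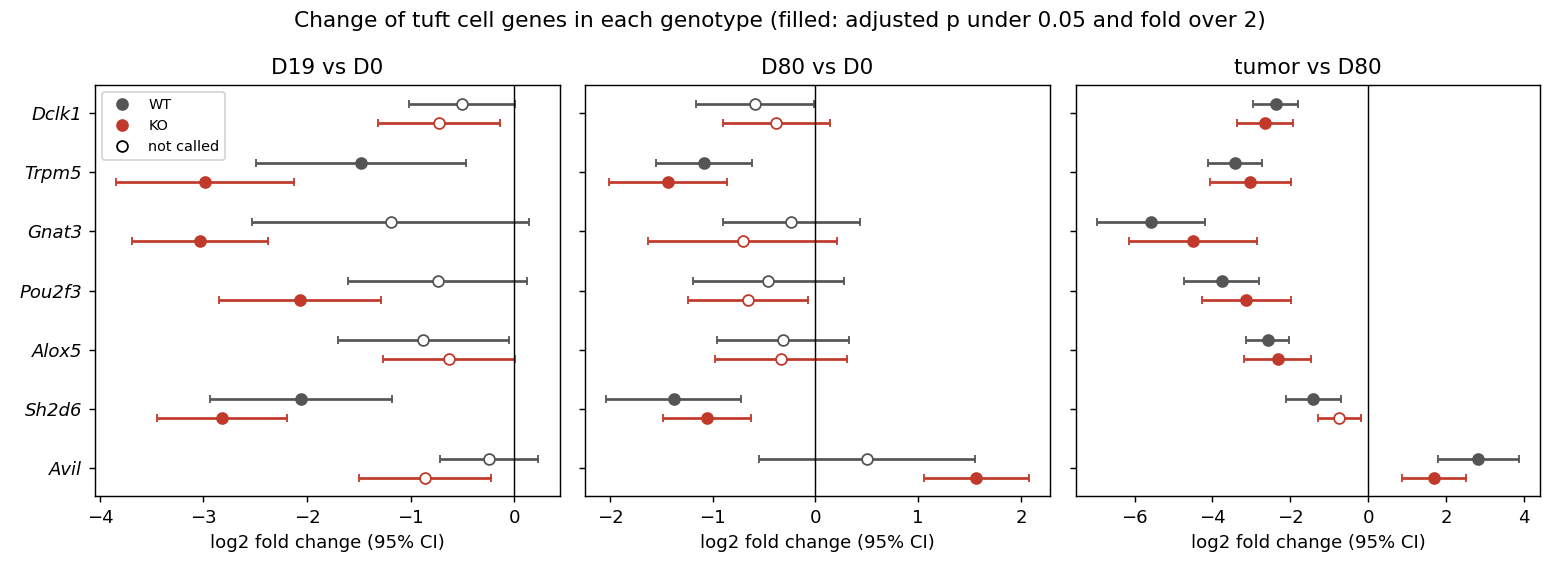
Log2 fold change (horizontal axis) with its 95% CI for the 7 genes tested (vertical axis), in WT (gray) and KO (red). Filled points were called, and at D19 the called genes lie between -1.48 and -3.04, and in tumors *Avil* alone lies above 0.

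The difference between genotypes at D19 was then tested directly. Of 7 members, 0 were called between KO and WT by edgeR or by DESeq2, and edgeR called 0% of the 19545 genes tested. All 7 were lower in KO, with a median log2 fold change of -1.38 against 0.01 over all genes, and 5 had an unadjusted p under 0.05, which 11.3% of all genes had. *Gnat3* was at 2.89, 2.39, 0.152 and 1.20 CPM in WT and between 0.242 and 0.450 CPM in KO, so that 3 of 4 WT mice were above all KO mice. Its log2 fold change was -2.22 (95% CI -3.83 to -0.61, adjusted p = 0.363). Those of *Trpm5* and *Pou2f3* were -1.72 (95% CI -3.03 to -0.41, adjusted p = 0.378) and -1.67 (95% CI -2.76 to -0.58, adjusted p = 0.359). *Avil* did not overlap between the genotypes, whereas the other members did. It was at 7.59, 6.53, 4.71 and 4.88 CPM in WT and 3.63, 3.69, 1.55 and 3.42 CPM in KO (log2 fold change -0.94, adjusted p = 0.363). The share of all genes without overlap was not computed. In the test of whether the change from D0 to D19 differed between genotypes, 0 of 8 members were called by edgeR or DESeq2, where edgeR called 0.0298% of all genes, 4 had an unadjusted p under 0.05 (8.15% of all genes), and *Trpm5* had a value of -1.52 (SE 0.62, adjusted p = 0.521). A fit over all 32 libraries called *Trpm5*, *Pou2f3* and *Sh2d6* lower in KO at D19, with adjusted p of 0.0454, 0.0452 and 0.0446, where 0.187% of the 21338 genes in that fit were called lower.

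The 2 highest WT mice for *Trpm5*, *Pou2f3*, *Gnat3*, *Il25*, *Avil*, *Dclk1*, *Sh2d6* and *Alox5* at D19 were always 685 and 686, which share the number 97 at the front of their label. The other 2 WT mice and all KO mice carry 115 or 116. Within 115 and 116 the KO to WT log2 fold change was -0.61 (SE 0.55) for *Trpm5*, -0.88 (SE 0.51) for *Pou2f3*, -0.92 (SE 0.72) for *Gnat3* and 0.35 (SE 0.38) for *Alox5*, and 0 members were called. The number's meaning is not given in the labels, and since D0, D19 and the later samples carry different prefixes, prefix and stage cannot be told apart. With WT mice 805 and 812 alone at D19, the log2 fold change from D0 in WT was -2.57 (SE 0.34, adjusted p = 0.000993) for *Trpm5*. In that fit *Trpm5*, *Pou2f3*, *Gnat3*, *Sh2d6* and *Alox5* were called lower, where 5.42% of all genes were. *Il25* was called lower as well, but mice 805 and 812 had 1 and 0 counts of it. It passed the filter only through the D0 libraries, where it was higher, so its call adds no support. Both fits were added after the data were seen. They leave out the 2 WT mice that were highest for every member at D19. A larger fall from D0 and a smaller difference from KO were set by that choice, so the further calls add no support. Neutrophil genes moved with this order. Their summed level over 11 genes was 10.8 and 15.0 CPM in WT mice 685 and 686, 162 and 69.1 CPM in WT mice 805 and 812, and 353 to 667 CPM in KO mice. Their part in the result was not tested.

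**Figure D3:**
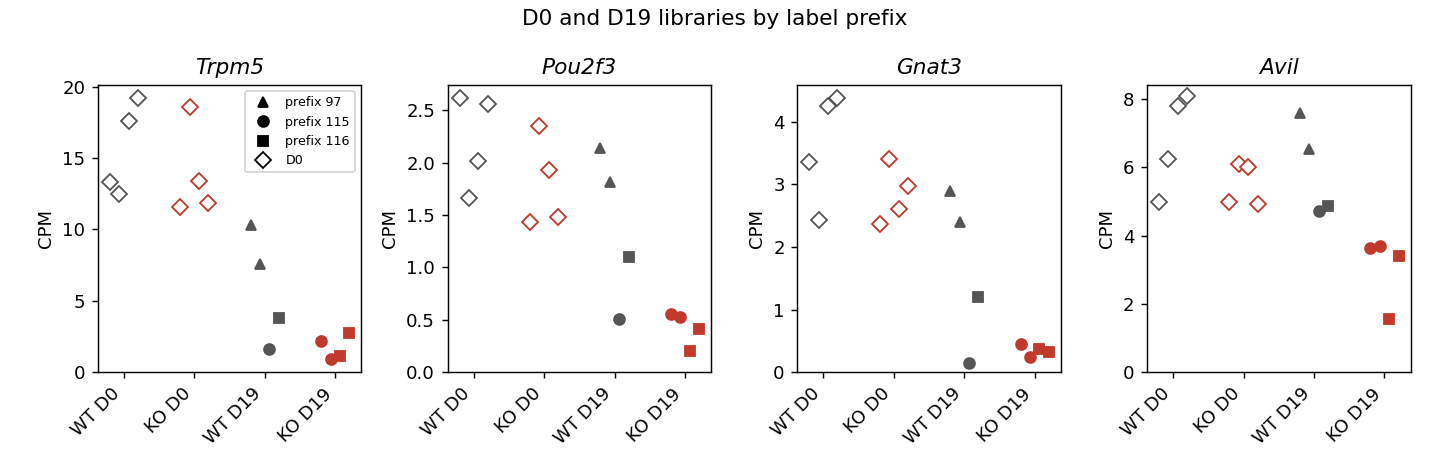
Level (CPM, vertical axis, from 0) of 4 genes in D0 and D19 colon by group (horizontal axis), with the label prefix of D19 mice as the symbol. WT mice of prefix 97 (triangles) lie above the WT mice of 115 and 116, and *Trpm5* in WT mouse 805 (1.65 CPM) is within the KO range.

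After 3 cycles *Trpm5* and *Sh2d6* were below D0 in both genotypes, whereas *Avil* was above D0 in KO. *Trpm5* was at 8.06, 6.45, 7.23 and 8.28 CPM in WT D80 mice and at 4.20, 8.36, 4.09 and 4.27 CPM in KO D80 mice. All 8 were below every D0 mouse of their genotype, and the log2 fold change from D0 in WT was -1.08 (SE 0.21, adjusted p = 0.00974), that in KO -1.44 (SE 0.26, adjusted p = 0.00117). *Sh2d6* lay between 1.76 and 2.82 CPM in WT and between 1.46 and 2.36 CPM in KO, again below D0 without overlap. It fell by 1.38 on the log2 scale in WT (SE 0.29, adjusted p = 0.0149) and by 1.06 in KO (SE 0.19, adjusted p = 0.00127). These 2 members were the ones called lower at D80 in each genotype, where 3.25% of all genes were called lower in WT and 7.63% in KO. In WT the *Sh2d6* call was lost without D0 mouse 920 or D80 mouse 541 or 542, and that of *Trpm5* without D0 mouse 927, by its fold of under 2. In KO that of *Sh2d6* was lost without D0 mouse 853 or D80 mouse 543, also by the fold, and *Gnat3* was called lower without D80 mouse 535 (-1.38, adjusted p = 0.00121). With *Hoxb13* as a covariate 0 members were called in WT (adjusted p = 0.121 for *Trpm5* and 0.116 for *Sh2d6*), and 0 of all genes were called in that fit. The epithelial score as a covariate also left 0 in WT (adjusted p = 0.0534 and 0.0702), and in KO it left 1 call, that of *Avil*.

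*Avil* took another course from D19 on. In KO mice it had 5.00, 6.11, 6.02 and 4.92 CPM at D0, and 19.7, 9.69, 15.9 and 22.2 CPM at D80. Every KO D80 mouse was above every KO D0 mouse, and the log2 fold change was 1.57 (SE 0.23, adjusted p = 0.000344), where 13.4% of all genes were called higher. In WT D80 mice it had 7.83, 18.3, 10.4 and 2.82 CPM, the last in the mouse that stood apart, and its log2 fold change of 0.50 (SE 0.46, adjusted p = 0.570) was not called. *Avil* was not called between the genotypes at D80 (log2 fold change 0.75, 95% CI -0.33 to 1.84, adjusted p = 0.681).

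From D19 to D80, 2 of 7 members were called higher in KO, where 1.21% of all genes were. They were *Avil*, whose log2 fold change was 2.44 (SE 0.33, adjusted p = 0.0140), and *Sh2d6*, with 1.76 (SE 0.30, adjusted p = 0.0261). Neither was called without KO D19 mouse 804 or 813 or KO D80 mouse 544, *Sh2d6* was not called without KO D19 mouse 803 or KO D80 mouse 527 or 543 either, and the epithelial score as a covariate left 0 as well. *Gnat3* had at most 0.450 CPM at D19 and, at D80, 0.906, 3.67, 1.43 and 1.04 CPM without overlap, and its log2 fold change of 2.32 (SE 0.50) had an adjusted p of 0.0578 (1.68, adjusted p = 0.0459, without KO D80 mouse 535). *Trpm5* (1.55, adjusted p = 0.120) and *Pou2f3* (1.42, adjusted p = 0.0982) did not overlap either. In WT 0 of 7 members were called by edgeR or DESeq2, 0 had an unadjusted p under 0.05 (5.22% of all genes), and edgeR called 0.0104% of all genes. Between KO and WT at D80, 0 of 7 were called by either tool and 0 had an unadjusted p under 0.05, as 5.55% of all genes had. *Gnat3* had the lowest log2 fold change there, at 2.84, 2.27, 2.93 and 4.45 CPM in WT against 0.906, 3.67, 1.43 and 1.04 CPM in KO (log2 fold change -0.86, 95% CI -1.96 to 0.24). KO mouse 535 was the highest KO mouse for 7 members at D80, and the lowest for *Avil*.

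Tumors were compared with D80 colon to see which tuft transcripts they kept. *Gnat3* nearly disappeared, with 1, 0, 1, 8 and 3 counts in 5 WT tumors against 76 to 134 counts in WT D80 colon. These are 0.0254, 0.00, 0.0278, 0.202 and 0.0785 CPM, all below the colon, and the log2 fold change was -5.57 (SE 0.63, adjusted p = 0.000353). The KO tumors had 4, 3 and 1 counts, and the log2 fold change was -4.49 (SE 0.72, adjusted p = 0.00229). *Pou2f3* had 2, 4, 3, 7 and 8 counts in WT tumors and 4, 9 and 1 counts in KO tumors. Its level of 0.128 ± 0.0652 CPM in WT tumors (SD, n = 5) was below every D80 mouse. Its log2 fold change in WT was -3.76 (SE 0.43, adjusted p = 0.000389), that in KO -3.13 (SE 0.50, adjusted p = 0.00225).

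*Trpm5* was at 0.913, 0.569, 0.389, 1.16 and 0.785 CPM in WT tumors and at 0.736, 0.960 and 0.250 CPM in KO tumors. All 8 tumors were below all D80 colons, with log2 fold changes of -3.42 in WT (SE 0.31, adjusted p = 0.000197) and -3.02 in KO (SE 0.45, adjusted p = 0.00173). The same direction held for *Dclk1*, at 2.92, 1.95, 2.73, 4.04 and 2.70 CPM in WT tumors and 2.78, 1.95 and 1.5 CPM in KO tumors. It fell by 2.38 on the log2 scale in WT (SE 0.26, adjusted p = 0.000324) and by 2.64 in KO (SE 0.31, adjusted p = 0.000725). *Alox5*, which makes leukotriene precursors and is also expressed in myeloid cells, had log2 fold changes of -2.58 in WT (SE 0.25, adjusted p = 0.000254) and -2.33 in KO (SE 0.37, adjusted p = 0.00233). The summed level of 8 macrophage genes was 283 to 384 CPM in WT D80 colon and 127 to 273 CPM in WT tumors. That of neutrophil genes went the other way, at 11.6 to 55.3 CPM in WT D80 colon and 70.7 to 1409 CPM in WT tumors. The part of these cells in the *Alox5* values was not tested. *Sh2d6* kept more of its level, with 0.926 ± 0.313 CPM in WT tumors (SD, n = 5) and 1.13 ± 0.0845 CPM in KO tumors (SD, n = 3). It was called in WT (log2 fold change -1.41, SE 0.31, adjusted p = 0.00804), whereas in KO the change of -0.75 (SE 0.24, adjusted p = 0.0362) was under the fold of 2.

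*Avil* was at 57.9, 84.6, 57.7, 64.3 and 113 CPM in WT tumors and at 78.4, 62.3 and 26.6 CPM in KO tumors, the last in the KO tumor that stood apart. All 8 tumors were above all 8 D80 colons, and the log2 fold change was 2.83 in WT (SE 0.47, adjusted p = 0.00195) and 1.69 in KO (SE 0.36, adjusted p = 0.00721). Per kilobase of exon, *Avil* reached 22.2 ± 7.0 CPM/kb in WT tumors (SD, n = 5), and the next of the 8 genes, *Sh2d6*, was at 0.548 ± 0.185 CPM/kb. *Tsfm*, which shares 4.86% of the exonic bases of *Avil*, was at 25.3 ± 2.99 CPM in WT tumors (SD, n = 5) and 13.9 ± 0.811 CPM in WT D80 colon (SD, n = 4). With *Hoxb13* as a covariate the *Avil* value in KO was 0.63 (adjusted p = 0.501), and 2 of 7 members, *Trpm5* and *Dclk1*, were still called. The share of all genes called in that fit is not given here, so this loss of calls cannot be read as particular to tuft genes. *Hoxb13* was higher in each KO tumor than in each KO D80 colon, at 135 to 210 CPM against 67.8 to 123 CPM.

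Thus 6 members were called lower and 1 higher of 7 tested in WT tumors, where 13.5% of all genes were called lower and 8% higher. In KO 5 were called lower and 1 higher, where 16.4% and 10.3% of all genes were. In both fits *Pou2f3* and *Gnat3* passed the filter through D80 colon, since their tumor counts were too low for a test among tumors. Their lower calls therefore add no support to the counts of 6 and 5. Between KO and WT tumors no member was called: of 5 tested, 0 passed the rule used for tumors (nominal p under 0.01, fold over 2) in edgeR or DESeq2, where 0.306% of all genes passed in edgeR. Of the 5, 0 had an unadjusted p under 0.05, against 6.61% of all genes. The change from D80 to tumor was called different between genotypes for 0 of 7 members, by edgeR or DESeq2, as for 0% of all genes by edgeR, 0 had an unadjusted p under 0.05 (11.7% of all genes), and the value for *Avil* was -1.15 (SE 0.62, adjusted p = 0.469).

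**Figure D4:**
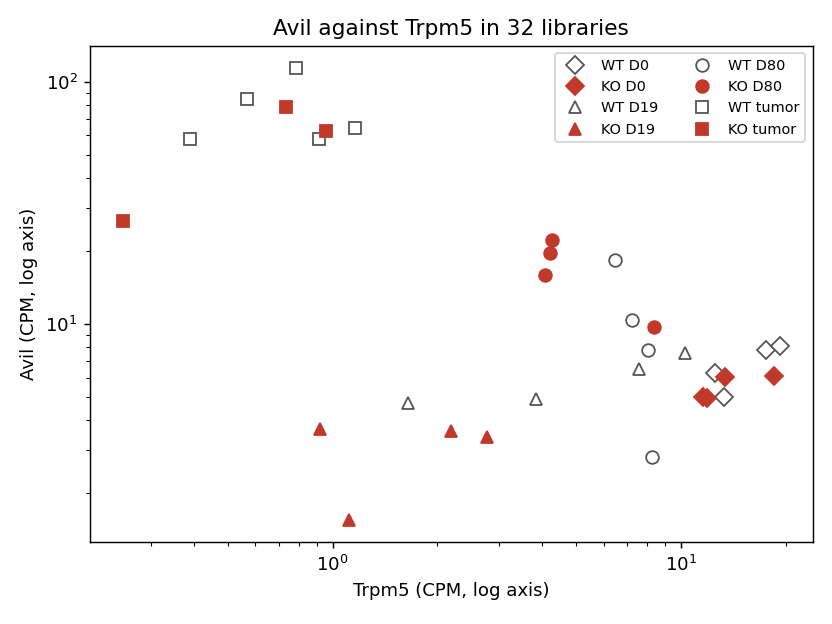
*Avil* (vertical axis, CPM, log axis) against *Trpm5* (horizontal axis, CPM, log axis) in 32 libraries, by stage (symbol) and genotype (open gray symbols for WT, filled red for KO). Tumors (squares) are at the upper left, with *Trpm5* at most 1.16 CPM and *Avil* at least 26.6 CPM; D19 colon (triangles) holds low values of both in KO.

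Further tuft genes were followed in lists by role. Of 5 other transcription factors of tuft cells, 3 of 5 tested were called lower at D19 than at D0 in KO, and 0 of 4 in WT, where 2.52% and 4.04% of all genes were. In KO these were *1810046K07Rik* (*Pou2af2*, the coactivator of POU2F3), at -2.51 on the log2 scale (SE 0.42, adjusted p = 0.00303), *Hmx2*, with -1.83 (SE 0.31, adjusted p = 0.00350), and *Gfi1b*, with -2.26 (SE 0.50, adjusted p = 0.0145). No factor of this list was called for a difference between genotypes in that change, where 0.0298% of all genes were. The adjusted p there was 0.632 for *1810046K07Rik*, 0.675 for *Hmx2* and 0.573 for *Gfi1b*. In tumors 3 of 3 tested were called lower in WT and 4 of 5 in KO, against 13.5% and 16.4% of all genes. *1810046K07Rik* went from 1.53 to 0.0469 CPM in the mean of WT mice (log2 fold change -5.02, SE 0.70, adjusted p = 0.000888). *Hmx2* went from 0.771 to 0.0380 CPM (-4.35, SE 0.47, adjusted p = 0.000324). At such tumor levels both genes passed the filter through D80 colon, where they were higher, so their calls in WT add no support. *Spib*, also used by B cells and M cells, fell by 2.5 (SE 0.68, adjusted p = 0.0206).

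Of 12 genes of chemosensory signaling, 7 were tested, and 2 were called lower at D19 in KO, as were 2.52% of all genes. *Rgs13*, a regulator of G protein signaling, had a log2 fold change of -2.71 there (SE 0.28, adjusted p = 0.000210), and *Ffar3*, a receptor for short-chain fatty acids, had -2.53 (SE 0.38, adjusted p = 0.00177). *Ffar3* was the 1 called lower in WT (-1.59, SE 0.41, adjusted p = 0.00987), where 4.04% of all genes were. Both genes were lower again in WT tumors, where they were the 2 called of this list (13.5% of all genes were called lower), by 5.23 for *Rgs13* (SE 0.59, adjusted p = 0.000364) and by 4.87 for *Ffar3* (SE 0.52, adjusted p = 0.000317). *Plcg2*, a phospholipase also found in B cells and myeloid cells, rose in KO from D0 to D80 by 1.35 on the log2 scale (SE 0.12, adjusted p = 1.7e-05).

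Of 6 further enzymes of eicosanoid synthesis, 0 were called lower at D19 than at D0 in either genotype, whereas 1 was called higher in WT and 2 in KO (9.33% and 8.95% of all genes), and their median log2 fold change was 0.74 in WT and 0.68 in KO. *Ptges*, the prostaglandin E synthase, rose by 1.64 in WT (SE 0.23, adjusted p = 0.000492) and by 2.76 in KO (SE 0.18, adjusted p = 3.23e-05). *Alox5ap*, the partner of 5-lipoxygenase and abundant in neutrophils, rose by 2.31 in KO (SE 0.33, adjusted p = 0.00123). *Alox5* itself had a log2 fold change of -0.63 there (adjusted p = 0.216).

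Among 13 kinases and adaptors, 3 were called lower and 3 higher at D19 in KO, where 2.52% and 8.95% of all genes were. *Sh2d7*, a relative of *Sh2d6*, went from 6.33 to 1.05 CPM in the mean (-2.59, SE 0.31, adjusted p = 0.000458), and *Matk*, a kinase, fell by 1.14 (SE 0.23, adjusted p = 0.00758). *Inpp5d*, which leukocytes also express, rose by 2.33 on the log2 scale (SE 0.44, adjusted p = 0.00577). In tumors 6 of 13 were called lower in WT and 9 of 13 in KO (13.5% and 16.4% of all genes), with *Sh2d7* at log2 fold changes of -4.80 (SE 0.65, adjusted p = 0.000759) and -4.83 (SE 0.66, adjusted p = 0.00129).

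The 12 remaining tuft markers split in tumors, with 4 called higher and 4 lower of 11 tested in WT and 3 each of 10 tested in KO. Of all genes, 8% were called higher and 13.5% lower in WT, and 10.3% and 16.4% in KO. *Siglecf*, which eosinophils carry too, went from 2.09 to 0.315 CPM in the mean in WT (-2.84, SE 0.34, adjusted p = 0.000457). *Krt23*, a keratin, went from 11.8 to 109 CPM (3.10, SE 0.39, adjusted p = 0.000519), and *Nebl*, which encodes the actin-associated protein nebulette, went from 5.18 to 38.5 CPM (2.77, SE 0.32, adjusted p = 0.000401). In KO tumors the log2 fold changes of *Krt23* and *Nebl* were 1.99 (adjusted p = 0.00331) and 2.73 (adjusted p = 0.000857). At D19 in KO, 4 of 12 were called lower (2.52% of all genes), among them *Smpx* (-2.21, SE 0.32, adjusted p = 0.00127) and *Ly6g6f* (-2.63, SE 0.41, adjusted p = 0.00199).

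Among genes of the type 2 circuit in which tuft cells act, those tested were at higher levels after treatment. Listed genes too low for the filter were not scored. Cytokines *Il13*, *Il5* and *Il9* failed it in the fits of the genotype difference from D0 to D19 and from D80 to tumor. All 10 tested were higher at D80 than at D0 in both genotypes, and 6 were called in WT and 7 in KO, where 7.07% and 13.4% of all genes were called higher. *Il33*, an alarmin, was at 12 CPM in the mean of WT D80 against 0.971 at D0 (log2 fold change 3.6, SE 0.41, adjusted p = 0.00133), and *Ccl11*, the eosinophil chemokine, had 25.8 against 2.84 CPM (3.17, SE 0.49, adjusted p = 0.00417). Other cell types moved with this list from D0 to D80. The summed level of macrophage genes was 27.2 to 70.3 CPM at D0 and 283 to 384 CPM at D80 in WT, and that of fibroblast genes was 315 to 438 CPM at D0 and 1596 to 2091 CPM at D80 in KO. Mast cell genes (9 listed) had 1.05 to 2.5 CPM at D0 and 38.1 to 63.0 CPM at D80 in WT, and 1.99 to 2.57 and 34.3 to 61.0 CPM in KO. Their part in the values of the type 2 genes was not tested. *Il25* had 0.0849, 0.0299, 0.177 and 0.225 CPM in the same WT D80 mice (exact permutation p = 0.114 against D0). In KO D80 mice *Il25* had 2, 3, 0 and 0 counts, below each KO D0 mouse (exact permutation p = 0.0286, the smallest these group sizes allow, adjusted p = 0.171 over 12 comparisons). In tumors it had 0, 0, 0, 4 and 0 counts in WT and 0, 0 and 2 counts in KO, and neither passed the test against D80 (exact permutation p = 0.0635 and 1).

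Epithelium and its other secretory lineages were read beside these values. Of 12 epithelial genes, 1 was called lower at D19 in each genotype (4.04% of all genes in WT and 2.52% in KO), and their median log2 fold change was -0.28 in WT and -0.42 in KO. With the epithelial score as a covariate, 0 members and 0 of all genes were called at D19 in KO, and *Trpm5* was at -2.58 (adjusted p = 0.588). In tumors the epithelial median was 0.05 in WT and 0.10 in KO. Enteroendocrine genes were called lower in tumors for 9 of 9 tested in WT and 9 of 10 in KO, and goblet genes for 8 of 8 and 7 of 8, where 13.5% and 16.4% of all genes were. Genes of other tissue parts moved in tumors too: 8 of 8 smooth muscle genes were called lower in each genotype (median log2 fold change -3.67 in WT and -3.59 in KO), and 6 of 6 squamous genes were called higher (5.22 and 4.46), as were 8% and 10.3% of all genes. Their part in the tuft gene values was not tested. *Sst*, the somatostatin gene, fell by 4.84 in WT tumors (SE 0.54, adjusted p = 0.000353), and *Spdef*, the goblet factor, by 2.04 (SE 0.24, adjusted p = 0.000421).

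How the members varied between mice was read from their deviations from the group mean (log2 CPM) over the 24 colon libraries, each set against *Trpm5*. *Alox5* (Pearson r = 0.88, Spearman rho = 0.91, permutation p = 4.0e-05 and 8.0e-05, adjusted p = 0.00028 and 0.00056 over 7 relations) and *Gnat3* (r = 0.86, rho = 0.75, permutation p = 0.00021 and 0.00018, adjusted p = 0.000735 and 0.00063) varied with it most closely. *Sh2d6* had r = 0.74, *Pou2f3* 0.63, *Dclk1* 0.62 and *Il25* 0.60, with adjusted permutation p of 0.00929, 0.0251, 0.00838 and 0.0251, and rho of 0.54, 0.62, 0.65 and 0.58 with adjusted permutation p of 0.0389, 0.0182, 0.00677 and 0.0110. *Avil* had r = 0.11 and rho = 0.22 (permutation p = 0.547 and 0.367). Without the 2 libraries farthest from the median of *Trpm5*, WT D19 mice 685 and 805, r was 0.85 for *Alox5*, 0.71 for *Gnat3*, 0.51 for *Dclk1*, 0.48 for *Il25*, 0.47 for *Sh2d6*, 0.38 for *Pou2f3* and -0.03 for *Avil*. Each label prefix held too few mice of a group for values within it.

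The genes most like the mean of *Trpm5* and *Pou2f3* were sought in the same way among 16265 genes with a mean of at least 1 CPM. The 10 with the highest r were *Kcnf1* (0.89), *Sh2d7* (0.88), *Dclk1* (0.83), *Cdkl1* (0.83), *Otud1* (0.82), *Dnah5* (0.82), *Siglecf* (0.82), *Sun2* (0.81), *Gnat3* (0.81) and *Il17rb* (0.80). These r describe 24 libraries that share depth and tissue makeup. *Sh2d7*, *Siglecf* and *Il17rb*, the receptor of IL-25, are on the tuft lists above. *Alox5* ranked 18th and *Sh2d6* 227th (0.61), and *Avil* ranked 2799th with r = 0.37. Without KO mouse 811 and WT mouse 581, *Sh2d7* (0.96) and *Gnat3* (0.95) ranked first and second, *Alox5* ranked 11th, *Sh2d6* 12th (0.85), *Dclk1* 17th (0.82) and *Avil* 4549th of 16280. The rank of *Sh2d6* thus depended on those 2 libraries. When WT D19 mice 805 and 685 were left out instead, r was 0.19 for *Sh2d6*. For the 10 genes named first it was then between 0.57 (*Gnat3*) and 0.85 (*Dclk1*). Over the 16 D80 colon and tumor libraries, the genes most like *Avil* were *Gnal* (0.97), *Bcam* (0.96), *Focad* (0.96) and *Med22* (0.95), and its r with *Trpm5* was 0.06.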

How the data were processed

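Whole colon and tumor RNA was sequenced as single-end reads of 75 nt. Per the methods, the authors aligned reads to mm10 with STAR and counted genes with subread, and they deposited raw counts per gene. The submitters' processing notes name FastQC 0.11.5, STAR 020201, subread 1.6.2 and GENCODE release M25. From the deposited counts, edgeR 4.0.16 (R 4.3.3) was used with TMM scaling, its expression filter and the quasi-likelihood test in each pair of groups. Calls needed an adjusted p under 0.05 and a fold over 2 (tumors of KO against WT: nominal p under 0.01). The members and gene lists were chosen with earlier results of these data known. Named genes were the 8 members, up to 4 per list by smallest p, and the 10 genes most alike in r. *Tsfm*, which overlaps a member, and *Krt23* in KO tumors were chosen after their values were seen.

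D80 colon and tumor of the same mouse are paired: their deviations correlated at r of 0.0536 to 0.250 over 6 pairs, against -0.210 to 0.146 over 26 pairs of different mice. Alternatives were RLE size factors, no filter, at least 10 counts in every library, DESeq2 1.42.0, 1 fit over all 32 libraries, covariates for epithelium and *Hoxb13*, label prefix and mouse blocks, and leaving out each library. Fits limited to label prefixes 115 and 116, and the likeness to *Avil*, were added after the data were seen. The tests were tried on simulated counts. Replicates are separate mice. Fold change intervals and SEs include the spread between mice, whereas floors cover counting error only.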

Additional observations from a re-analysis of the deposited data

Results flagged for a closer look

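Of 55 groups tested for single libraries far from the rest, 7 stood out. The rule flags about 1 in 20 only for normal values in independent groups. Members share libraries and *Il25* has few counts, so the 7 cannot be judged against that rate. In KO D19 mouse 811, *Dclk1* was at 5.91 CPM (nearest mouse 10.7) and *Avil* at 1.55 CPM (nearest 3.42). In KO D80 mouse 535, *Trpm5* was at 8.36 CPM (nearest 4.27) and *Alox5* at 6.97 CPM (nearest 3.46). In KO D0 mouse 853, *Sh2d6* was at 4.48 CPM (nearest 3.59) and *Alox5* at 6.91 CPM (nearest 4.73). In the WT tumor of mouse 555, *Il25* was at 0.101 CPM, and it was 0 in the other 4 WT tumors.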

How the results depend on the processing

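Calls of members depended on the fit in colon and in tumors, and apart from the strict filter the cause was not tested. With the epithelial covariate, 1 (D19, WT), 0 (D19, KO), 0 (D80, WT) and 1 (D80, KO) members were called against D0, and 0 for D80 against D19 in KO. With *Hoxb13*, 1 (D19, WT) and 0 (D80, WT) were called against D0, and 2 in KO tumors. Calls over all genes fell too: 0 of all genes were called with the epithelial covariate (D19, KO) and with *Hoxb13* (D80, WT). Most other counts from alternative fits, here and above, stand without the share of all genes, so a loss of calls cannot be read as particular to tuft genes. The fit over 32 libraries called 3 (KO against WT, D19), 1 (D80 against D0, WT) and 4 (D80 against D19, KO), and DESeq2 called 5 in the last. The strict filter left 3 calls in KO tumors, and prefixes 115 and 116 alone gave 6 (D19, WT) once the highest WT mice were left out. Leaving out 1 library gave 1 to 3 calls (D19, WT), 4 to 4 (D19, KO), 1 to 2 (D80, WT), 2 to 4 (D80, KO), 0 to 3 (D80 against D19, KO), 7 to 7 (WT tumors) and 6 to 6 (KO tumors). With the mouse as replicate block, 7 and 6 members were called in WT and KO tumors and 0 for the difference between genotypes, so the pairing changed no call. Sign changes, all among values not called, were seen for *Alox5*, KO against WT at D19 (0.38 with a prefix block, 0.35 with prefixes 115 and 116, -0.54 to 0.061 when leaving out 1 library, above 0 without WT 685), and for *Trpm5*, KO against WT tumors (0.14 without the libraries that stood apart, 0.37 with a prefix block, -0.55 to 0.14 when leaving out 1, above 0 without KO 544). *Dclk1* from D19 to D80 in WT was 0.074 without the libraries that stood apart and -0.26 to 0.11 when leaving out 1 (above 0 without WT D19 685 or WT D80 581), *Pou2f3* in the same contrast -0.033 (without WT D19 805) to 0.55, and *Alox5* from D19 to D80 in KO -0.046 (without KO D80 535) to 0.44. The difference between genotypes in the change from D0 to D19 was 0.16 for *Dclk1* with prefixes 115 and 116. For the change from D80 to tumor, that difference for *Dclk1* was 0.013 without the libraries that stood apart and 0.14 with the mouse block. For *Pou2f3* the latter difference was -0.15 (without KO tumor 543) to 0.97. Over all genes, DESeq2 called 48, 309, 38 and 217 between genotypes at D0, D19, D80 and in tumors, where edgeR called 0, 0, 0 and 58, and 834 against 323 for D80 against D19 in KO. Genes at few counts, such as *Il25*, *Gnat3* and *Pou2f3* in tumors, are limited by depth.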
